A study of Caenorhabditis elegans with 3 samples.

Results

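The genes described here are 10 Caenorhabditis elegans genes for digestive proteases, the cathepsin B genes cpr-1 to cpr-6 and the aspartyl protease genes asp-1 to asp-4. They were taken by symbol, from probes that the platform annotation gives to exactly 1 gene. Of the 10, 9 were measured on all arrays, among 15129 genes measured on all arrays in the series. Each of the 9 had 1 probe. The remaining gene, asp-2 (T18H9.2), had no probe named for it in the annotation and was not analysed here. Transcript levels of late third-stage (late L3) hermaphrodites were set against a mixed reference of wild-type RNA on 2-colour arrays. Preparations (preps) 1, 2 and 3 of the larvae were hybridised to 1 array each, with the reference on the other channel. The labels state no strain, treatment or hour for the larvae, no stage or sex for the animals in the reference, and no separate culture for each prep. The p-values below thus reflect only spread between arrays, and that spread may be technical. Those from limma weigh a gene's own 3 values together with a spread shared between genes. The shared part counts for more, with 7.92 degrees of freedom against 2.

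A worm lives on bacteria that the pharynx grinds and passes into the intestine, a tube of large polarised cells that both secrete digestive enzymes into the lumen and degrade material in their own acidic lysosomes. Cathepsin B enzymes are papain-family proteases that cut with an active-site cysteine. Aspartyl proteases of the pepsin and cathepsin D type use a pair of aspartates and work best in acid. Both kinds are made as inactive precursors that are cleaved to the active enzyme, and several of the genes are known for strong transcription in the intestine.

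All values are log2 ratios, with each array centred on its median, so that 0 is the median probe of that array. The labels name neither the dyes nor the numerator. Late L3 over reference is taken as likely from the wording of the descriptions, which put the larvae first, and the reverse would turn every sign below. In the direction used, oocyte markers, which are adult transcripts, were lower in 10 of 12 measured genes, with a median of -2.92. Of all genes tested, 11.9% were lower. The markers bear on the direction only if the reference held adults, which the labels do not state. The RNA came from whole animals, so a change in the number or size of gut cells and a change in RNA per cell cannot be told apart.

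Of the 9 measured protease genes, 2 were higher than the reference (cpr-5 and asp-1), 1 was lower (cpr-2) and 6 did not pass limma's moderated test at an adjusted p under 0.05. Over all 15129 genes the same test called 23.3%, with 11.4% higher and 11.9% lower, so the count of 3 in 9 is near that background. A test that shares no spread between genes called 0 of all genes, so the calls rest on that sharing. The median of the 9 mean log2 ratios was 0.45, against -0.0027 over all genes tested. The genes covered a wide range. cpr-5 stood at percentile 99.9 of all mean log2 ratios and cpr-2 at percentile 0.962, while the other 7 had means between -0.08 and 1.08.

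**Figure D1:**
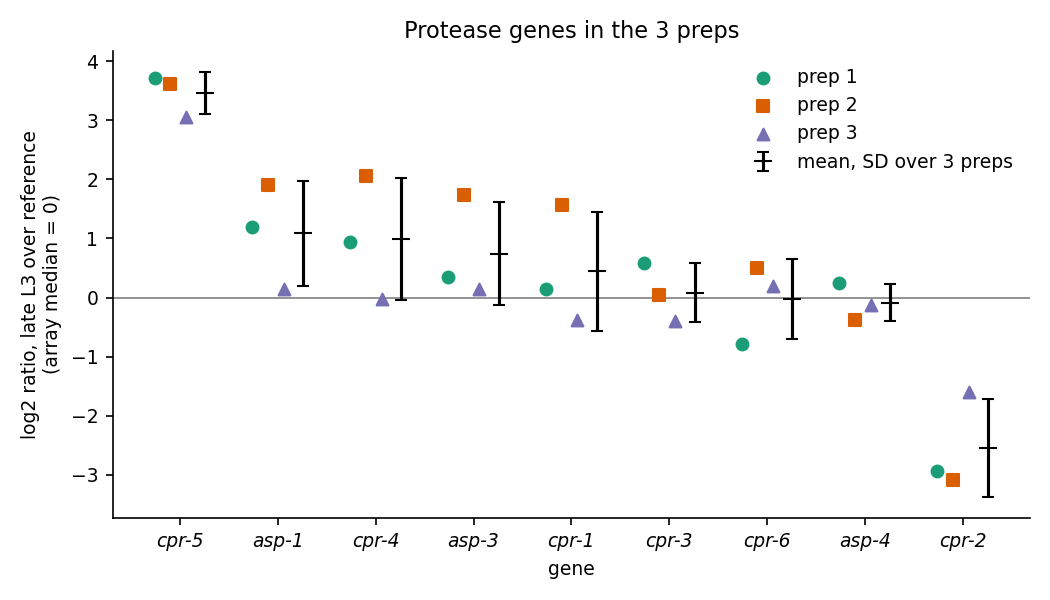
Log2 ratio of late L3 larvae over the mixed reference (y axis, array median at 0) for each measured protease gene (x axis, ordered by mean), with 1 point per prep and the mean with its SD over 3 preps beside it. The points of cpr-5 lie above all others, the points of cpr-2 below all others, and the points of asp-1, cpr-4, asp-3 and cpr-1 are spread over 1.60 to 2.07 log2 units with prep 2 on top.

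**Figure D2:**
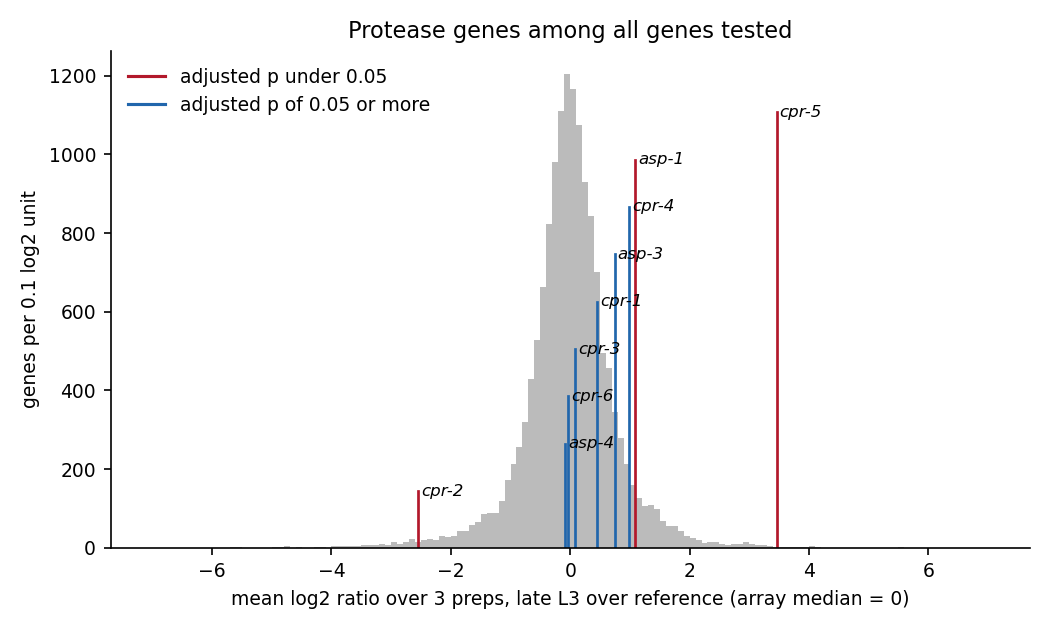
Number of genes (y axis) per 0.1 unit of mean log2 ratio over 3 preps (x axis, grey bars, 15129 genes), with a vertical line at the mean of each measured protease gene. Line heights only separate the names. Red lines mark genes with an adjusted p under 0.05: cpr-2 at -2.54, asp-1 at 1.08 and cpr-5 at 3.46.

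Among the cathepsin B genes, cpr-5 (W07B8.5, chromosome V) had log2 ratios of 3.71, 3.61 and 3.05 in preps 1, 2 and 3. All preps were far above the median and close to each other, and its SD of 0.36 was near the median SD of all genes, 0.34. The mean was 3.46 ± 0.36 (SD, n = 3), 10.98-fold higher than the reference, with a 95% interval of 2.96 to 3.96 (limma, adjusted p = 1.26e-05). With the arrays scaled to 1 spread, cpr-5 had 3.33, 2.90 and 4.78, so prep 3 was not close to the others on that scale.

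At the other end, cpr-2 (F36D3.9, V) had -2.94, -3.09 and -1.59. Every prep was far below the median, and prep 3 was over 1 log2 unit above the others. The mean was -2.54 ± 0.83 (SD, n = 3), 5.83-fold lower than the reference, with an interval of -3.203 to -1.88 (limma, adjusted p = 0.000255). The whole array of prep 3 was narrower, with a median absolute deviation over probes of 0.39 against 0.69 and 0.77 in preps 1 and 2. After the arrays were brought to 1 spread, cpr-2 had -2.64, -2.48 and -2.50, so the distance of prep 3 from the others was not seen on that scale.

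cpr-4 (F44C4.3, V) encodes a cathepsin B homologue known as a secreted protein that acts at a distance in irradiated worms. Its log2 ratios were 0.94, 2.05 and -0.02. Prep 2 was over 1 unit above the others and prep 3 lay at the median. The mean of 0.99 ± 1.04 (SD, n = 3), with an interval of 0.24 to 1.74, missed the threshold (limma, adjusted p = 0.0597). It passed without prep 1 (mean 1.02, adjusted p = 0.00762), without prep 3 (1.496, adjusted p = 0.00187), with no centring (0.99, adjusted p = 0.0428) and with quantile normalization (0.89, adjusted p = 0.0417). Without prep 2 the mean was 0.46 (adjusted p = 0.358). It also did not pass in limma with array weights (adjusted p = 0.143) or with a trend along the probe identifiers removed (0.117). The same held with arrays scaled to 1 spread (0.108) and with robust eBayes (0.0826). Fits with a prep left out hold 2 arrays and rest mostly on the spread shared between genes.

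cpr-1 (C52E4.1, V), described as a gut-specific cysteine protease gene, had 0.15, 1.57 and -0.37. It was above the median in preps 1 and 2 and below it in prep 3, with prep 2 again far above the others. The mean was 0.45 ± 1.01 (SD, n = 3), with an interval of -0.29 to 1.19 (limma, adjusted p = 0.369), and without prep 2 it was -0.11. The value of prep 2 therefore decided its sign.

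cpr-3 (T10H4.12, V) had 0.59, 0.05 and -0.40, on both sides of the median. Its mean of 0.08 ± 0.50 had an interval of -0.46 to 0.62 (limma, adjusted p = 0.847). cpr-6 (C25B8.3, X) had -0.79, 0.51 and 0.19, with prep 1 on the lower side alone. Its mean was -0.03 ± 0.68, with an interval of -0.63 to 0.57 (limma, adjusted p = 0.954).

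Among the aspartyl protease genes, asp-1 (Y39B6A.20, V), whose product is known from the intestine of larvae, had 1.201, 1.90 and 0.15. All preps were above the median, but prep 3 only slightly and over 1 unit below the others. The mean was 1.08 ± 0.88 (SD, n = 3), 2.12-fold higher than the reference, with an interval of 0.40 to 1.77 (limma, adjusted p = 0.0290). In the limma fit on 2 arrays without prep 2, the mean was 0.68 and asp-1 did not pass (adjusted p = 0.215). The loss was not particular to asp-1: without prep 2 the higher calls over all genes fell from 1718 to 770. The call of asp-1 was also lost with array weights (adjusted p = 0.0667) and when a trend along the probe identifiers was removed (adjusted p = 0.0973).

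asp-3 (H22K11.1, X) and asp-4 (R12H7.2, X) encode cathepsin D-like enzymes that are known for their part in necrotic death of worm neurons. asp-3 had 0.34, 1.74 and 0.14, all above the median, with prep 2 over 1 unit above the others. Its mean of 0.74 ± 0.87, with an interval of 0.06 to 1.42, did not pass (limma, adjusted p = 0.110). Without prep 1 (0.94, adjusted p = 0.0153) and without prep 3 (1.04, adjusted p = 0.0339) it passed, and without prep 2 the mean was 0.24 (adjusted p = 0.530). These limma fits hold 2 arrays and, like the fits on 3 arrays, rest mostly on the spread shared between genes. Fewer values of the gene itself enter them, so the passes add little evidence. asp-4 had 0.24, -0.37 and -0.12, all close to the median. Its mean of -0.08 ± 0.31 had an interval of -0.57 to 0.40 (limma, adjusted p = 0.819). The values of asp-3 and asp-4 overlapped over the preps. Within arrays, asp-3 was above asp-4 in every prep, by 0.11, 2.12 and 0.26.

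The order of the means was cpr-5, asp-1, cpr-4, asp-3, cpr-1, cpr-3, cpr-6, asp-4 and cpr-2. Of the 36 pairs of measured genes, 15 had values that did not overlap over the preps, and every one of these pairs held cpr-5 or cpr-2. The count thus only restates that these 2 genes lie at the ends of the range. The share of pairs without overlap over all genes was not computed. The 21 pairs among the other 7 genes all overlapped over the preps. Within arrays, where both genes of a pair share the prep, 9 of these 21 pairs had the same order in every prep. Among them were asp-3 over asp-4, given above, and 2 pairs singled out after their values were seen. asp-3 was above its neighbour cpr-1 by 0.198, 0.17 and 0.51 (mean difference 0.29 ± 0.19, SD, n = 3), and cpr-4 was above cpr-1 by 0.79, 0.48 and 0.36 (0.54 ± 0.22). The other neighbours among the 7 genes changed order between preps. With 3 preps an exact sign-flip test of a difference cannot give a p below 0.25, and none was run. The 21 pairs share 7 genes and are not independent, and the share of such pairs over all genes was not computed. The 6 measured genes on chromosome V held all 3 calls, 2 higher and 1 lower. Of the 3897 genes tested on that chromosome, 10.98% were higher and 12.1% lower. None of the 3 on the X (cpr-6, asp-3 and asp-4) passed; 1 of them had an unadjusted p under 0.05 in limma, and 0 with a test that shares no spread between genes. Of all X-linked genes tested, 14.6% were higher and 9.75% lower.

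**Figure D3:**
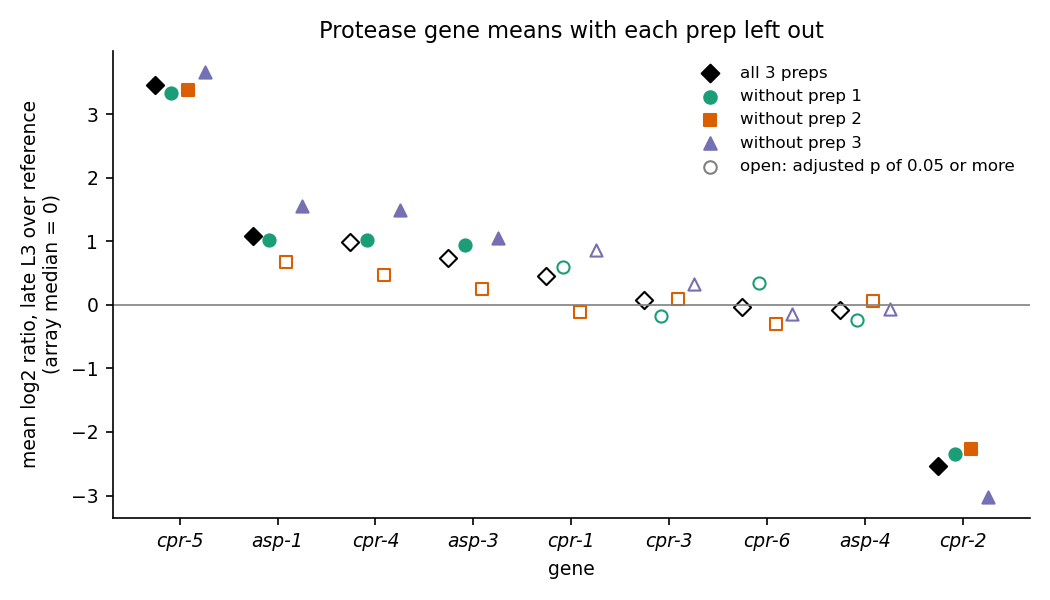
Mean log2 ratio (y axis, array median at 0) of each measured protease gene (x axis) over all 3 preps and with each prep left out. Filled symbols have an adjusted p under 0.05 in limma. Fits with a prep left out hold 2 arrays and rest mostly on the spread shared between genes. cpr-5 and cpr-2 are filled in every setting shown, while asp-1, cpr-4 and asp-3 are open and nearer to 0 without prep 2, at 0.68, 0.46 and 0.24.

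By the median SD, the preps differed more for these genes than over all genes. The median SD of the 9 genes was 0.83, against 0.34 over all genes tested. Of the marker lists below, epidermis had 0.74, body wall muscle 0.57 and intestine 0.33. The SDs of cpr-5 and asp-4 were larger than those of only 53.1% and 43.3% of all genes. In contrast, cpr-4, cpr-1, asp-1 and asp-3 each had a larger SD than 95.2% to 97.6% of all genes. Those 4 of the 9 genes were highest in prep 2 and lowest in prep 3, an order that 19.9% of all genes had. Their ranks moved with it: cpr-4 was at percentiles 90.8, 97.4 and 49.9 of the arrays of preps 1, 2 and 3, and cpr-1 at 59.5, 94.6 and 20.0. asp-1 was at percentiles 94.3, 96.7 and 66.7, and asp-3 at 70.4, 95.9 and 65.7. After scaling the arrays to 1 spread, asp-1 still had 1.08, 1.53 and 0.23, and cpr-4 had 0.84, 1.64 and -0.03. In contrast, cpr-5 stayed between percentiles 99.6 and 99.9 on every array, and on the scaled values was highest in prep 3, at 4.78 against 3.33 and 2.90. Prep, array and the date in the array title are a single factor here.

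**Figure D4:**
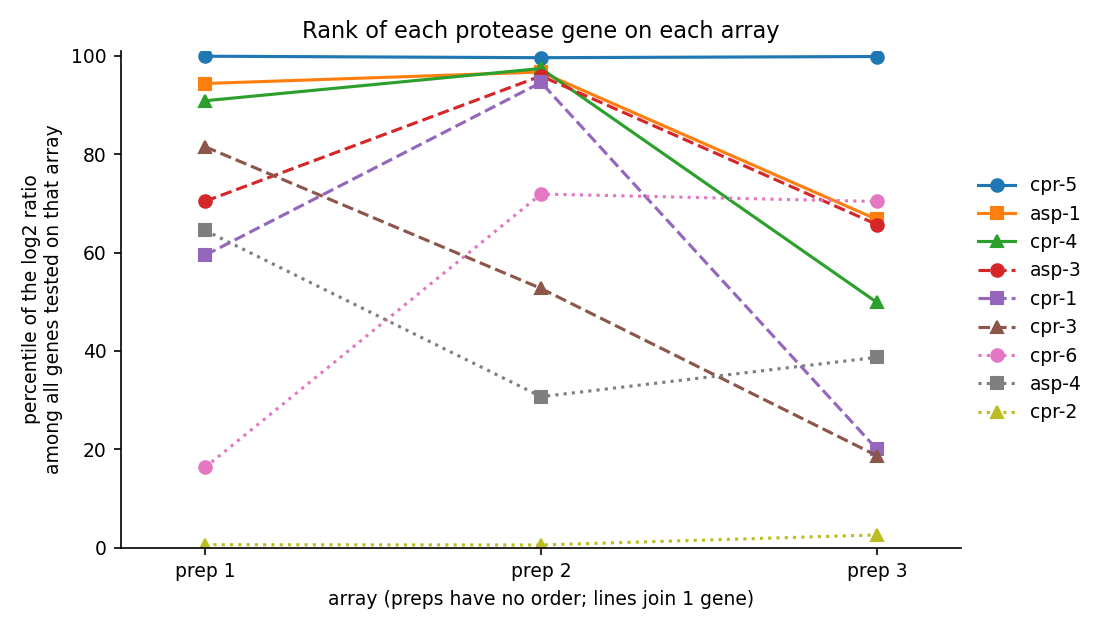
Percentile of each protease gene's log2 ratio among the 15129 genes on the same array (y axis) for preps 1, 2 and 3 (x axis, with no order between preps). cpr-5 stays near 100 and cpr-2 near 0, while cpr-1 lies at 94.6 in prep 2 and at 20.0 in prep 3.

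Of 20 intestine markers, 15 were higher and 5 did not pass, against 11.4% higher over all genes. The median of the list was 1.48, and its means ran from the transcription factor gene elt-7 at -0.07 to the transporter gene pgp-1 at 3.01. Their list medians were 1.71, 1.39 and 1.13 in preps 1, 2 and 3, against 0.34, 1.57 and -0.02 for the 9 protease genes. By these medians prep 2 was the highest for the proteases and not for the gut markers. Gene by gene, prep 2 was the highest in 5 of the 9 proteases and in 8 of the 20 gut markers, against 38.5% of all genes. The order with prep 2 highest and prep 3 lowest was found in 4 of the 20 gut markers. Body wall muscle markers had 7 of 9 genes higher, with medians of 1.64, 2.21 and 1.03, and 5 of the 9 had that order. Pharynx markers had 4 higher and 2 lower of 13 (median 0.45), and 6 of the 13 had that order. Epidermis markers had 3 higher of 9 (median 0.57), and 2 of the 9 had that order. Germ line markers had 3 higher and 1 lower of 10 (median 0.08), and 4 of the 10 had it. The part of these tissues in the protease values was not tested.

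Other proteases of the same families gave smaller ratios than cpr-5. Of 21 other cysteine cathepsins listed, 17 were measured, and 5 were higher and 2 lower, with a median of 0.32. These were 29.4% and 11.8%, against 11.4% higher and 11.9% lower over all genes. The cathepsin B gene cpr-8 was at 2.13, 1.74 and 1.34, a mean of 1.74 ± 0.39 (limma, adjusted p = 0.000513), and F32H5.1 at 1.28, 1.14 and 1.08. The cathepsin F homologue tag-196 was lower at -1.65, -1.51 and -0.98. cpr-8 and W07B8.4 are the protein-coding genes on either side of cpr-5 on chromosome V in the RefSeq annotation of WBcel235. W07B8.4, singled out for its position after its values were seen, was lower at -1.22, -1.13 and -0.99 (mean -1.11 ± 0.12, limma, adjusted p = 0.00371). The 3 neighbouring protease genes thus had values of both signs that did not overlap over the preps.

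Other aspartyl proteases had 1 of 10 measured genes higher and 1 lower, with a median of -0.08. These counts are near the shares over all genes, 11.4% higher and 11.9% lower. asp-12 was at 1.12, 1.42 and 0.28 (mean 0.94 ± 0.59, limma, adjusted p = 0.0240) and asp-8 at -0.55, -0.74 and -0.98 (mean -0.76 ± 0.21, adjusted p = 0.0275). The other 8, with the pseudogene asp-11 among them, lay between -0.62 and 0.67 and did not pass. Single members of these families share sequence, and whether their transcripts hybridise to each other's probes could not be examined with the ratios alone.

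Serine carboxypeptidases, legumain, dipeptidyl and amino peptidases and peptide transporters act on proteins and peptides that endopeptidases have opened. Of 23 measured, 12 were higher and 3 lower, with a median of 0.79. The carboxypeptidase (cathepsin A) genes ctsa-1.2 and ctsa-4.2 were at 2.43 ± 0.51 and 2.34 ± 0.15, and the Pro-X carboxypeptidase gene pcp-3 at 2.39 ± 0.88 (SD, n = 3 each). In pcp-3, prep 2 was over 1 unit above the others, at 3.33 against 2.27 and 1.59, the order seen in cpr-4. Of all genes, 11.4% were higher, so the higher share of this list lay above that of all genes and above that of the protease genes described first. No test of that difference was run.

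Of 6 protease inhibitors measured, 3 were lower and 0 higher, with a median of -0.71. Over all genes 11.9% were lower and 11.4% higher, and no test of the list was run. The cystatin genes cpi-1 and cpi-2, whose products inhibit papain-family enzymes such as the cathepsins, were at -3.28 ± 0.30 (limma, adjusted p = 1.41e-05) and -0.98 ± 0.44 (adjusted p = 0.0134). cpi-1 had -3.47, -2.94 and -3.43, close to each other and far below the median. The serpin gene srp-2 was at -1.34 ± 0.33. The other 3 inhibitors lay between -0.44 and 0.56.

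Other lysosomal genes had 7 higher and 9 lower of 31 measured, with a median of -0.03. These were 22.6% and 29.0%, against 11.4% higher and 11.9% lower over all genes. The alpha-mannosidase gene aman-1 was at 1.84 ± 0.81, with 2.26, 2.34 and 0.90 in the preps, and the acid sphingomyelinase gene asm-3 and the hexosaminidase gene hex-1 were at -1.86 ± 0.34 and -1.81 ± 0.42 (SD, n = 3 each). Of 9 measured transcription factors of gut and lysosome genes 0 passed in limma, and 0 had an unadjusted p under 0.05, there or in a test without shared spread. The intestinal GATA factor gene elt-2 was at 0.15 ± 0.24 and hlh-30, the homologue of the lysosomal regulator TFEB, at -0.08 ± 0.07. These 2 genes were chosen after their values were seen.

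**Figure D5:**
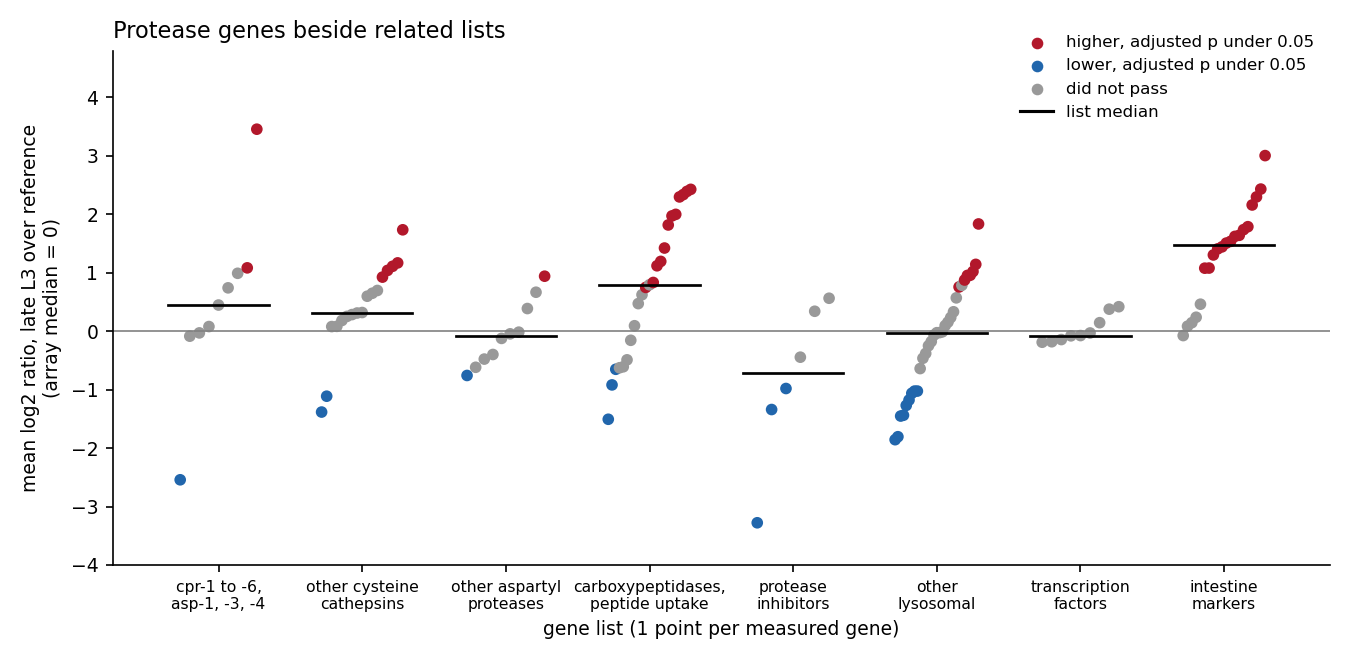
Mean log2 ratio over 3 preps (y axis, array median at 0) of every measured gene in the protease genes described here and 7 related lists (x axis), coloured by the limma call at an adjusted p under 0.05, with a bar at each list's median. The 9 protease genes have a median of 0.45 and include the highest mean shown, cpr-5 at 3.46, and the intestine markers have a median of 1.48.

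By Euclidean distance over the 3 arrays, the genes most like cpr-5 were dod-19 at 3.82, 3.83 and 2.91 (distance 0.274), the cytochrome P450 gene cyp-35C1 at 3.67, 3.32 and 3.05 (0.292) and the infection response gene irg-4 at 3.31, 3.63 and 3.05 (0.401). The genes most like cpr-2 were F07G11.1 at -2.89, -3.02 and -1.73 (0.161), sss-1 at -2.75, -2.84 and -1.74 (0.349) and T13F2.9 at -2.70, -2.83 and -1.86 (0.447). The measure rests on 3 arrays and reads both level and spread.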

How the data were processed

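The deposited value table holds log2 ratios of the 2 channels for 20000 probes, with values on all arrays for 19772. Base 2 was taken from the values themselves, since 100% of ratios under 0.3 became whole thousandths (tolerance 0.01) with it. The authors' normalization and filtering of these deposited log2 ratios are not stated in the labels or the table, and without spot intensities neither background nor dye effects nor saturation were examined. Correlations between arrays over those probes were 0.69 to 0.75. The number of arrays limits the precision.

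Of the probes, 15655 had 1 gene name in the platform annotation, 198 several and 4147 none. Names were updated through RefSeq (WBcel235) by gene ID for 15569 probes and by accession for 7, and 79 kept the older name. Arrays were centred on their medians, probes averaged by gene, and genes complete on all arrays compared with 0 by limma 3.58.1 (R 4.3.3; intercept, eBayes, 2-sided; prior of 7.92 degrees of freedom), with Benjamini-Hochberg adjustment over 15129 genes and a threshold of 0.05. This leaves out the reference's own spread. The members and lists were chosen with earlier results of these data known, and the calls of a list are described by counts only.

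The genes named are the 10 proteases, up to 3 genes of each related list (largest means among those that passed with 1 sign on all arrays), and the 3 genes nearest to the highest and the lowest protease. Any other gene is marked in the text as picked with its values in view, except the range ends of the marker lists. Alternatives covered centring, scaling, quantile normalization, missing values, probes, robust and weighted fits, shared spread, thresholds and leaving out each prep. Plots were made with matplotlib 3.10.9 (Python 3.11.15).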

Additional observations from a re-analysis of the deposited data

How the results depend on the processing

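cpr-5 stayed higher and cpr-2 lower under every alternative that shares spread between genes, with means of 3.33 to 3.67 and -3.02 to -2.27. With a test that shares no spread, 0 genes were higher and 0 lower, also among the proteases, while 3271 of all genes and 2 of the proteases had an unadjusted p under 0.05 there, against 5383 and 5 with limma. The count of higher proteases, 2, was 1 with array weights, at an adjusted p under 0.01 and after a running median over 201 probes in identifier order was subtracted, an alternative chosen after seeing the data. It was 3 with no centring, with quantile normalization and at an adjusted p under 0.10. It ranged from 1 to 4 when single preps were left out, lowest without prep 2, and the count of lower proteases was 1 each time. Fits with a prep left out hold 2 arrays and rest mostly on the spread shared between genes. Over all genes, 1718 were higher and 1805 lower. At an adjusted p under 0.01 these were 890 and 1004, and with single preps left out 770 to 1740 and 1009 to 1542, the lowest again without prep 2. Means near 0 changed sign without passing. With arrays scaled to 1 spread cpr-3 was at -0.020 and cpr-6 at 0.0014, with quantile normalization cpr-6 was at 0.017, and with the identifier trend removed cpr-3, cpr-6 and asp-4 were at -0.38, 0.077 and 0.082. With single preps left out, cpr-1 ranged from -0.11 to 0.86, cpr-3 from -0.18 to 0.32, cpr-6 from -0.30 to 0.35 and asp-4 from -0.25 to 0.059. The cause of these shifts was not tested. Each ratio already pairs the larvae with the reference on 1 array. The design has 1 group, so no other pairing of samples was possible.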

Other observations

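On chromosome V the aspartyl protease genes asp-6, asp-12 and asp-5 follow each other in the RefSeq annotation of WBcel235, and the pseudogene asp-11 comes next. They were singled out for their position after their values were seen. asp-12 was higher, as given above. asp-5 was at 0.99, 0.67 and 0.34 in preps 1, 2 and 3, a mean of 0.67 ± 0.32 (SD, n = 3; limma, adjusted p = 0.0541). asp-6 was below the median in every prep, at -0.10, -0.43 and -0.67 (limma, adjusted p = 0.222), and asp-11 was on both sides of it, at 0.81, -0.77 and -0.09.

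Among the other cysteine cathepsins, the cathepsin L gene cpl-1, needed in embryos, and the cathepsin Z gene cpz-1, known from moulting, were lowest in prep 1. Both were chosen after their values were seen. cpl-1 was at 0.40, 1.40 and 1.32, a mean of 1.04 ± 0.55 (SD, n = 3; limma, adjusted p = 0.0138). cpz-1 was at -0.02, 0.94 and 1.17, a mean of 0.70 ± 0.63 that did not pass (limma, adjusted p = 0.0839). In cpr-4, cpr-1, asp-1 and asp-3 the lowest prep was prep 3.

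The gut peptide transporter gene pept-1 was at 2.33, 2.05 and 2.52 (mean 2.30 ± 0.24, SD, n = 3; limma, adjusted p = 6.58e-05), and the legumain gene lgmn-1 at -1.198, -1.76 and -1.56 (mean -1.51 ± 0.28; limma, adjusted p = 0.000849). Both were chosen after their values were seen.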
